A study of Mus musculus with 4 samples.

Results

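A group of 10 genes of lipid and iron handling were followed on expression arrays of H3f3b knockout (KO) and wild type (WT) mouse embryonic fibroblasts (MEFs). They were every probe annotated to 5 lipid genes (Apoe, Lpl, Abca1, Fabp4 and Fabp5) and 5 iron genes (Trf, Tfrc, Fth1, Ftl1 and Slc40a1), which made 13 of the 25697 probes and 10 of the 16593 named genes on the array. The genes were chosen partly on earlier results for the KO to WT contrast in these same signals, so that contrast is described for them without a test. H3f3b is a gene for the replication-independent histone H3.3. The KO MEFs (lines KO1 and KO2) were H3f3b -/-, and the WT MEFs (lines WT1 and WT2) came from WT/WT littermates of heterozygous intercrosses. All 4 were C57BL6J lines from embryos at E12.5, with the head and visceral organs removed, and all 4 carried a puromycin resistance vector. The null allele was made by deletion in the germline with Zp3-Cre, each line came from 1 embryo, and 1 array was run per line, so the spread within a genotype is that between 2 lines.

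Lipids and iron both need carriers in water. Apolipoprotein E, the Apoe product, coats lipoprotein particles and is bound by lipoprotein receptors at the cell surface, lipoprotein lipase frees fatty acids from their triglycerides, the Abca1 pump passes cholesterol to apolipoproteins at the cell surface, and the Fabp proteins bind fatty acids inside the cell. Iron travels in the blood on transferrin (Trf), enters cells through the transferrin receptor (Tfrc), is stored in ferritin made of heavy (Fth1) and light (Ftl1) chains, and leaves through ferroportin (Slc40a1). Much of the iron response acts on translation of the ferritin and ferroportin mRNAs and on stability of the Tfrc mRNA, and arrays see only mRNA amount. Tissue macrophages are rich in Apoe, Lpl and ferroportin, whereas Fabp4 is best known from adipocytes and macrophages.

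The checks of the samples were short. H3f3b gave signals of 97.3 and 98.7 on the KO arrays, at background, against 1735.7 and 1686.2 on the WT arrays. The lines also differed in sex markers: Xist, the X-inactivation RNA, gave 181.0 in KO1, 107.4 in KO2, 95.8 in WT1 and 86.8 in WT2, and Y-linked Eif2s3y was detected in every line but KO1. Of the fibroblast markers, Vim, Thy1, Col1a1 and Col1a2 were detected on all 4 arrays, whereas Postn was detected on none. The mean deposited signal was 1.304 times as high in KO as in WT arrays, and 11202 to 11543 probes per array were detected, meaning a detection p under 0.05 against the negative control probes. Because of this overall offset both KO arrays stood above both WT arrays in deposited signal for 88.9% of the 8047 genes tested, so the comparisons rest on values normalized between arrays.

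Of the 10 genes, 6, with 8 probes, were detected on all 4 arrays. The other 4 genes, Abca1, Fabp4, Fabp5 and Ftl1, with 5 probes, were not detected on any array. The median signal of probes at background was 97.1 and 94.6 on the KO arrays and 80.9 and 84.4 on the WT arrays. Abca1 gave signals of 98.3 and 100.5 in KO MEFs and 77.9 and 89.2 in WT MEFs, and Fabp4 gave 103.0 and 101.1 in KO MEFs and 85.5 and 88.8 in WT MEFs. The probes for Fabp5, the epidermal fatty acid binding protein, gave 97.5 and 107.8 in KO MEFs with 84.2 and 86.1 in WT MEFs, and 97.1 and 95.4 in KO MEFs with 78.2 and 77.0 in WT MEFs. The Ftl1 probe gave 96.3 and 100.7 in KO MEFs and 93.3 and 97.2 in WT MEFs. All of these values lay near their own array's background, which was itself higher on the KO arrays, so no difference between genotypes is given. An undetected probe sets no limit on the mRNA, and Fabp5, Ftl1 and Fth1 have near-identical copies in the mouse genome whose effect on these probes was not tested.

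**Figure D1:**
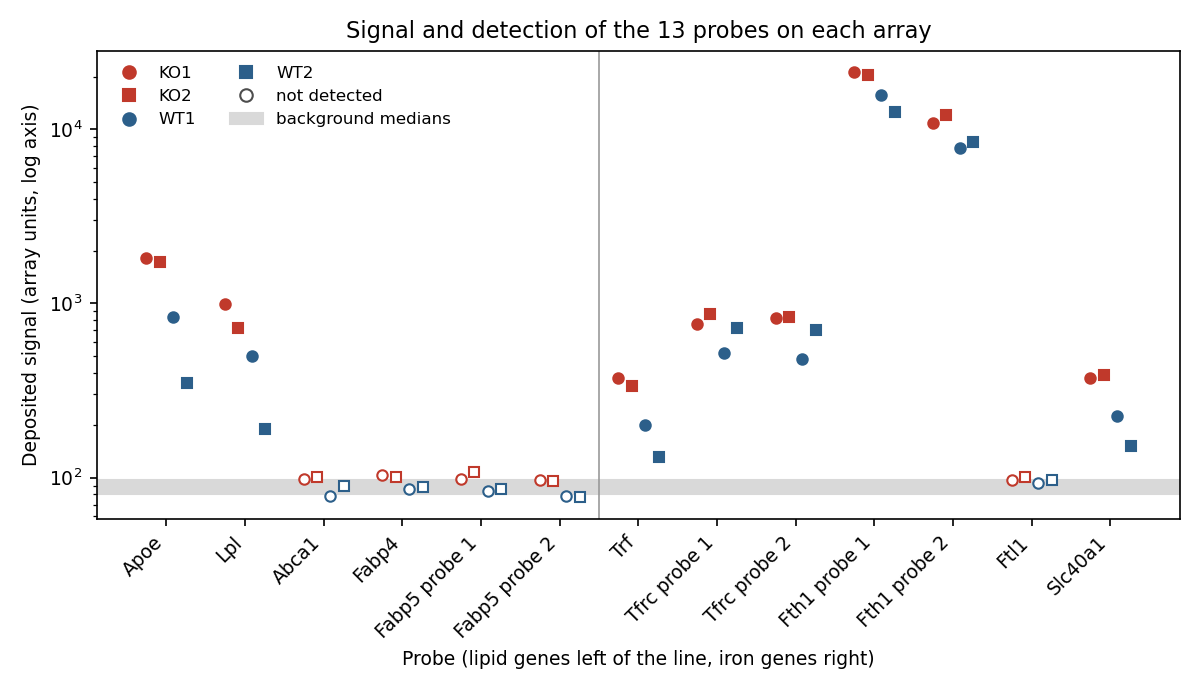
Deposited signal (log axis) of each of the 13 probes on the KO1, KO2, WT1 and WT2 arrays, with filled points for detected and open points for undetected probes, and the grey band spanning the background medians of the arrays (80.9 to 97.1). Apoe, Lpl, Trf, Tfrc, Fth1 and Slc40a1 stood above the band on every array, and the 5 probes of Abca1, Fabp4, Fabp5 and Ftl1 lay in or near it.

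Both detected lipid genes had their higher values in KO MEFs. Apoe, the lipoprotein coat protein, gave signals of 1814.0 in KO1 and 1731.2 in KO2, against 838.7 in WT1 and 348.1 in WT2. After background correction and quantile normalization these became 10.55 and 10.47 in KO MEFs and 9.83 and 8.37 in WT MEFs on the log2 scale. The KO lines lay close together and above both WT lines, while WT2 was far below WT1. The mean was 10.51 ± 0.06 in KO MEFs and 9.10 ± 1.04 in WT MEFs (SD, n = 2 each), a difference of 1.41 ± 0.43 (SE), or 2.657-fold.

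Lpl, which encodes lipoprotein lipase, gave signals of 993.8 in KO1 and 727.1 in KO2, against 501.2 in WT1 and 189.7 in WT2. Its normalized log2 values were 9.63 and 9.10 in KO MEFs and 9.01 and 7.09 in WT MEFs. The genotypes did not overlap, but KO2 and WT1 were near neighbours and WT2 stood alone at the low end. The mean was 9.36 ± 0.37 in KO MEFs and 8.05 ± 1.35 in WT MEFs (SD, n = 2 each), a difference of 1.32 ± 0.56 (SE), or 2.489-fold.

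Among the iron genes, the carrier Trf and the exporter Slc40a1 had both KO arrays highest and WT2 lowest. Trf gave signals of 375.1 in KO1 and 337.4 in KO2, against 200.3 in WT1 and 131.4 in WT2. On the log2 scale these were 7.97 and 7.77 in KO MEFs and 7.27 and 6.09 in WT MEFs. Again neither KO line overlapped the WT lines, and WT2 was the lowest. The mean was 7.87 ± 0.14 in KO MEFs and 6.68 ± 0.83 in WT MEFs (SD, n = 2 each), a difference of 1.19 ± 0.36 (SE), or 2.286-fold. In WT2 the Trf signal was only 1.557 times the background median of that array. With the arrays scaled to a common mean as the authors did, the Trf difference was 0.75.

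Slc40a1, the only known cellular iron exporter of mammals, gave signals of 370.9 in KO1 and 388.7 in KO2, against 225.2 in WT1 and 151.7 in WT2. Its log2 values were 7.95 and 8.04 in KO MEFs and 7.52 and 6.51 in WT MEFs. The KO lines nearly coincided and lay above both WT lines. The mean was 7.998 ± 0.064 in KO MEFs and 7.02 ± 0.71 in WT MEFs (SD, n = 2 each), a difference of 0.98 ± 0.32 (SE), or 1.975-fold. In WT2 the Slc40a1 signal was only 1.797 times the background median of that array. The difference was 0.66 with the scaling by the authors and 0.67 without background correction.

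The uptake receptor and the heavy ferritin chain gave overlapping genotypes after normalization. For Tfrc, the brighter of its probes gave 757.1 and 872.8 in KO MEFs and 518.0 and 718.1 in WT MEFs in signal, and 9.19 and 9.41 in KO MEFs and 9.05 and 9.59 in WT MEFs on the log2 scale. Its other probe had log2 values of 9.34 and 9.33 in KO MEFs and 8.93 and 9.56 in WT MEFs. On both probes WT2 was the highest and WT1 the lowest of the 4 arrays, the opposite order of the WT lines to that of Apoe, Lpl, Trf and Slc40a1. The differences were -0.02 ± 0.23 and 0.09 ± 0.24 (SE), and the sign of the value from the brighter probe turned with the array left out and with the scaling.

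Fth1 encodes the ferroxidase chain of ferritin. Its brighter probe gave signals of 21298.9 and 20491.7 in KO MEFs and 15764.2 and 12582.3 in WT MEFs, and log2 values of 14.16 and 14.13 in KO MEFs and 14.18 and 13.83 in WT MEFs. The other probe had log2 values of 13.18 and 13.38 in KO MEFs and 13.10 and 13.27 in WT MEFs. WT1 lay above WT2 on the brighter probe and below it on the other, so the order of the WT lines was not settled for this mRNA. The differences were 0.14 ± 0.19 and 0.09 ± 0.18 (SE), both smaller than their error.

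**Figure D2:**
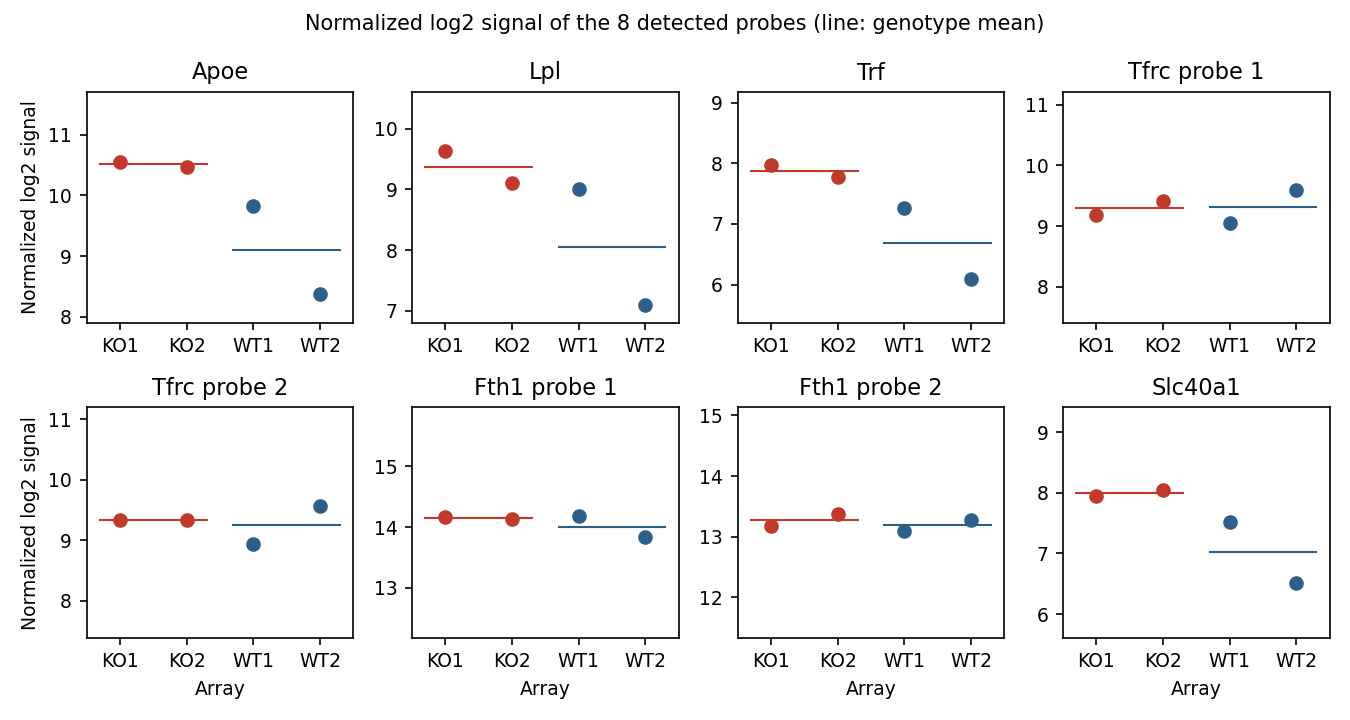
Normalized log2 signal of the 8 detected probes on each array, KO arrays in red and WT arrays in blue, with a line at the mean of each genotype. Every panel spans the same range of log2 units. Apoe, Lpl, Trf and Slc40a1 were higher on both KO arrays than on both WT arrays with WT2 lowest, and the probes of Tfrc and Fth1 overlapped.

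Counted together, 4 of the 6 detected genes had both KO arrays above both WT arrays, where 21.0% of all 8047 genes did, 17.1% had both below and 38.2% were free of overlap in either direction. Apoe, Lpl and Trf were 2-fold or more higher in KO MEFs, as were 0.360% of all genes. The median difference was 1.36 over the 2 lipid genes and 0.56 over the 4 iron genes, against 0.01 over all genes. These counts describe how the genes were chosen and carry no further weight. Over all genes, limma gave an unadjusted p under 0.05 to 8.13%. After Benjamini-Hochberg adjustment it called H3f3b alone, 0.0124% of genes, and no gene as higher in KO MEFs.

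The WT lines lay far apart for these genes. Apoe was 1.46 log2 units higher in WT1 than in WT2, Lpl 1.91, Trf 1.18 and Slc40a1 1.00, where the median gap between the WT lines over all genes was 0.24 in size. The gap between the WT lines was smaller than that of Apoe in 99.59% of genes, of Lpl in 99.81%, of Trf in 99.12% and of Slc40a1 in 97.99%. Between KO1 and KO2 the sizes were 0.08 for Apoe, 0.52 for Lpl, 0.20 for Trf and 0.09 for Slc40a1, and the median over all genes was 0.17. For these 4 genes the WT lines thus differed more from each other than the KO lines did. WT2 was the lowest array for 31.4% of all genes.

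The difference therefore depended on which WT line it was taken against. Without WT2 the KO mean exceeded WT1 by 0.68 for Apoe, 0.36 for Lpl, 0.60 for Trf and 0.48 for Slc40a1. Without WT1 it exceeded WT2 by 2.14 for Apoe, 2.27 for Lpl, 1.78 for Trf and 1.48 for Slc40a1. The genotypes did not overlap for these genes, so the direction had to hold against either line. The size was far larger against WT2 than against WT1. For the brighter Tfrc probe the KO mean was above WT1 by 0.25 and below WT2, at -0.29. For the brighter Fth1 probe it was below WT1, at -0.04, and above WT2 by 0.31, whereas the other Fth1 probe had it above WT1 by 0.18 and above WT2 by 0.006.

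**Figure D3:**
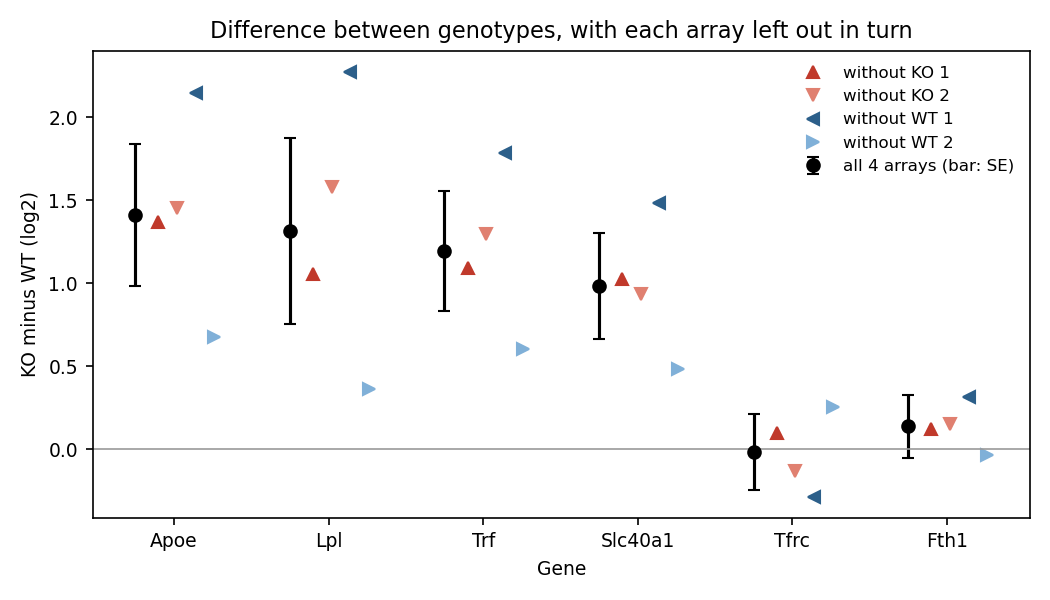
KO minus WT difference in log2 units for the 6 detected genes with all 4 arrays (black, bar is 1 SE) and with each array left out in turn (coloured triangles). Leaving out WT2 gave the smallest and leaving out WT1 the largest difference of Apoe, Lpl, Trf and Slc40a1, and the values of Tfrc and Fth1 fell on both sides of 0.

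Macrophage markers had positive differences as well. Of 18 macrophage markers tested, 18 had a positive difference (52.4% of all genes did), 14 had both KO arrays above both WT arrays (21.0% of all genes), and 10 had an unadjusted p under 0.05 in the higher direction (4.59% of all genes), though none passed the adjusted test. Their median difference was 0.54. The brightest were the lysozymes Lyz1 and Lyz2, the lysosomal membrane protein gene Laptm5 and the complement gene C1qb. Laptm5 gave signals of 5104.5 and 3975.9 in KO MEFs and 2142.0 and 1596.2 in WT MEFs, and differed by 0.88 ± 0.23 (SE, limma adjusted p = 0.54). C1qb gave 3320.9 and 2225.7 in KO MEFs and 1262.1 and 973.8 in WT MEFs, and differed by 0.88 ± 0.25 (SE, limma adjusted p = 0.54). The differences were 0.49 for Lyz1 and 0.37 for Lyz2. The marker and pathway lists were chosen with earlier results of these data known, so their counts are a description and carry no further weight.

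Summed over the 18 markers, the values scaled by the authors were 45868.6 and 36103.9 in KO MEFs and 30615.5 and 25256.5 in WT MEFs. Most of each sum came from Lyz1 and Lyz2, whose deposited signals in KO1 were 20637.6 and 14481.8. WT2 was the lowest array for 16 of the 18 (31.4% of all genes). The defining leukocyte markers Ptprc (CD45) and Itgam (CD11b) were not detected on any array, whereas Adgre1, C1qa and Tyrobp were. Adgre1, at 0.29 ± 0.40 (SE), was among 4 macrophage markers whose genotypes overlapped. Of the 24 listed, Cd68, Csf1r and Mpeg1 had no named probe. Without KO1, 16 of the 18 tested markers remained positive, with a median of 0.55 (0.02 over all genes). Without WT2, 15 did, with a median of 0.36 (0.02 over all genes). The part of these markers in the Apoe, Lpl, Trf and Slc40a1 values was not tested. In bulk RNA, more cells of a type and more RNA per cell cannot be told apart.

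Fibroblast markers overlapped between genotypes in 6 of the 10 tested, and 4 had both KO arrays below both WT arrays (17.1% of all genes). The difference was positive for 1 (52.4% of all genes) and negative for 9, with a median of -0.25. In limma, 1 had an unadjusted p under 0.05 in the lower direction (3.54% of all genes). That was Lum, a matrix proteoglycan gene, at -0.92 ± 0.20 (SE). WT1 had the highest mean of these markers. Of the brightest fibroblast genes, 3 differed little: the difference was 0.00 for Vim, -0.06 for Thy1 and 0.09 for Col1a1. It was larger in size for Col1a2, at -0.59 ± 0.36 (SE), and the genotypes of Col1a2 overlapped.

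**Figure D4:**
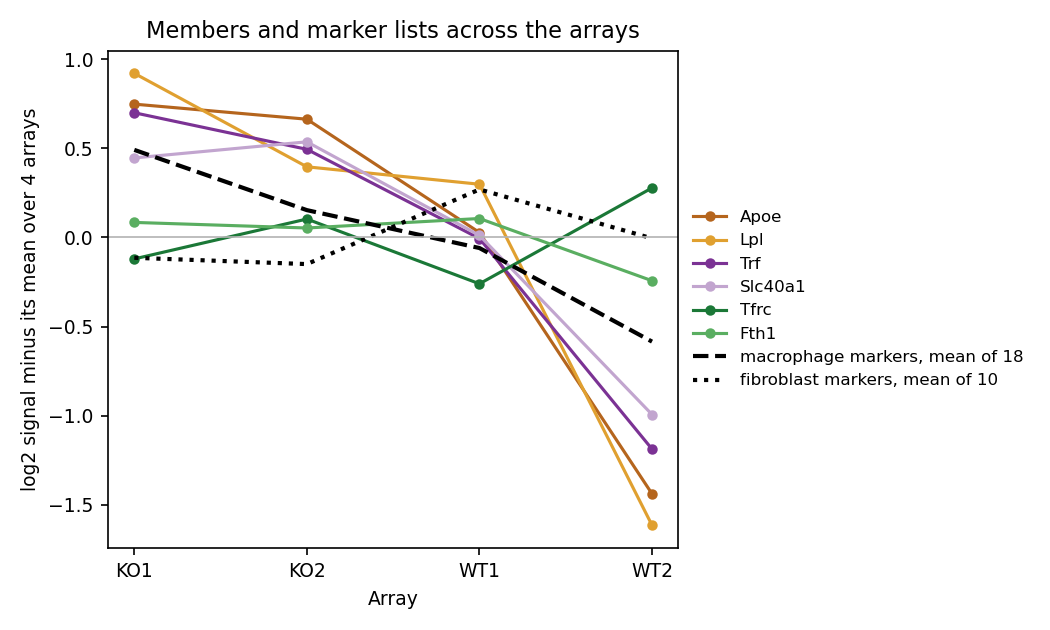
Normalized log2 signal minus its mean over the 4 arrays, for the 6 detected genes (coloured lines) and for the means of 18 macrophage (dashed) and 10 fibroblast markers (dotted). Apoe, Lpl, Trf and Slc40a1 were high in KO1 and KO2, between -0.01 and 0.30 in WT1 and lowest in WT2, and the macrophage mean stood at 0.49, 0.15, -0.06 and -0.58 in KO1, KO2, WT1 and WT2.

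Likeness of pattern was measured as the root mean square distance between log2 values centred on the 4 arrays, over 8046 other genes. The nearest genes to Apoe were Klra4, a lectin-like receptor gene (0.12), Trf (0.15), Ly86, a partner of a Toll-like receptor homologue (0.15), Lpl (0.23) and the Fc receptor gene Fcgr2b (0.25). The nearest to Trf were Arhgap30 (0.15), Klhl6 (0.15), Apoe (0.15), Gmfg (0.16) and the myeloid receptor gene Trem2 (0.16). Slc40a1 ranked 11 from Apoe and 6 from Trf, and Lpl ranked 45 from Trf. Fth1 ranked 1274 from Apoe and 1248 from Trf, and Tfrc 6725 from Apoe and 6732 from Trf. With only 4 arrays these distances are a description of the same lines already shown.

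The other lipid genes differed in both directions. Of 40 other lipid genes listed, 33 had a named probe and 20 were tested, of which 12 had a positive and 8 a negative difference, with a median of 0.11. Both KO arrays were above both WT arrays for 9 (21.0% of all genes) and below for 2 (17.1%), and 9 overlapped. Unadjusted p under 0.05 was reached by 2 in the higher direction and 1 in the lower (4.59% and 3.54% of all genes), and none passed the adjusted test. Pnpla2, the main triglyceride lipase of stored fat, had log2 values of 8.60 and 8.45 in KO MEFs and 7.93 and 7.99 in WT MEFs, a difference of 0.57 ± 0.17 (SE, limma adjusted p = 0.54). Here the lines of each genotype lay together, and WT1 and WT2 were near each other.

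Angptl4, a secreted inhibitor of lipoprotein lipase, went the other way. Its log2 values were 6.88 and 6.23 in KO MEFs and 7.31 and 7.66 in WT MEFs, a difference of -0.93 ± 0.26 (SE, limma adjusted p = 0.54). Both KO arrays were below both WT arrays, and WT2 was the highest of the 4. Apoc2, the cofactor of lipoprotein lipase, lay near background and differed by 0.66 ± 0.27 (SE, limma adjusted p = 0.61), a value that was 0.10 with the scaling by the authors. Fabp6, Fabp3 and Slc27a1, an ileal and a muscle type of fatty acid binding protein and a fatty acid transporter, differed by 0.40, 0.36 and 0.39. With the scaling by the authors Fabp6, also near background, gave -0.005 and Slc27a1 gave 0.19.

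Fabp3 was detected on all 4 arrays, at 938.0 and 1026.4 in KO MEFs and 614.0 and 549.2 in WT MEFs. Its log2 values were 9.53 and 9.67 in KO MEFs and 9.32 and 9.15 in WT MEFs (difference 0.36 ± 0.18, SE, limma adjusted p = 0.69). Of the lipid genes, 13 were not detected on any array, among them the cholesterol pump Abcg1, the oxysterol receptor Nr1h3 (LXR alpha), the fatty acid receptor Cd36, Apoc1 and Lipe.

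The other iron genes were near evenly split. Of 43 other iron genes listed, 40 had a named probe and 26 were tested, with 14 positive and 12 negative differences and a median of 0.01. None had an unadjusted p under 0.05 in the higher direction and 1 did in the lower (4.59% and 3.54% of all genes), and none passed the adjusted test. That gene was Hpx, the haem-binding plasma protein, with signals of 97.5 and 103.3 in KO MEFs, not detected on either array, and 95.5 and 100.4 in WT MEFs, just detected on both. It was lower only in values normalized or scaled between arrays, so no fold is given (limma adjusted p = 0.57). With no background correction and with an offset of 50 the count was 0 lower and 1 higher, Neo1.

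The next in order of p were Snx3, which sorts the transferrin receptor (-0.50 ± 0.22, SE), Neo1, a hemojuvelin receptor (0.33 ± 0.17), Exoc6, of the exocyst (-0.38 ± 0.22), and the iron transporters Slc11a2 (0.27 ± 0.17) and Slc11a1 (0.34 ± 0.22). Snx3 lay near background, at signals of 118.7 and 101.6 in KO MEFs and 103.9 and 104.1 in WT MEFs, as did Exoc6. Without background correction Snx3 gave -0.17 and Exoc6 gave -0.13, and with the scaling by the authors Slc11a2 gave 0.04. Slc11a1, the transporter of the macrophage phagosome, had log2 values of 8.87 and 8.36 in KO MEFs and 8.36 and 8.19 in WT MEFs, so KO2 and WT1 were level. The intestinal and neuronal transporter Slc11a2 had 6.14 and 5.96 in KO MEFs and 5.77 and 5.79 in WT MEFs. Tfr2, Hamp, Heph, Ltf and Lcn2 were among 11 iron genes not detected on any array.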

How the data were processed

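RNA from 2 KO and 2 WT MEF lines was hybridised to 4 MouseRef-8 arrays of Illumina, with a single array for each line. The authors extracted signals with GenomeStudio and deposited a table of signal intensity per probe, not normalized, with a detection p-value beside each. They also deposited a table of intensity values scaled by 1 factor per array to a common mean signal, used here as an alternative. Signals were corrected with normexp on detection p-values (offset 16), quantile normalized and taken to log2 with limma 3.58.1 in R 4.3.3. Probes with detection p under 0.05 on at least 2 of 4 arrays entered the fit (11552 probes, 672 without a gene name). KO was compared with WT by lmFit and eBayes, two-sided, with Benjamini-Hochberg adjustment over all probes, and the scripts were tested on simulated data. Where a gene had several tested probes, the brightest on average stood for it.

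Gene names came from the platform annotation, in which 23978 probes had 1 gene and 1719 had none. Genes in the lists without a named probe were not analysed here, and of these only the macrophage markers are named. The genes and all lists (other lipid, other iron, macrophage, fibroblast, adipocyte, erythroid, endothelium, glia) were chosen with earlier results of these data known. Named were every chosen gene, up to 6 of each pathway list by p with Fabp3, the 4 brightest and the undetected genes of each marker list, and the 5 nearest genes of Apoe and Trf. Adgre1, C1qa, Tyrobp and Lum, and the undetected pathway genes, were named after their values were seen. With 4 arrays, their number limits the precision. The alternatives were no background correction, an offset of 50, median scaling, the values scaled by the authors, no or a stricter detection filter, trended robust variances, a replicate block, means of probes, and each array left out.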

Additional observations from a re-analysis of the deposited data

How the results depend on the processing

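The differences of Apoe, Lpl, Trf and Slc40a1 were positive under all 13 alternatives, between 0.36 and 2.27. Most alternatives could not turn this sign. The filters, variances and block left the values unchanged, as did means of probes, since each gene had 1 tested probe. With an array left out the sign was fixed, because both KO arrays lay above both WT arrays. Only no background correction, the larger offset, median scaling and the scaling by the authors could turn it, and they gave 0.66 to 1.74. The median of the lipid genes lay between 0.52 and 2.21 with each array left out. The median of the iron genes was 0.90 without WT1 (0.37 to 0.90 over the arrays left out). Tfrc changed sign, with 0.30 under median scaling, 0.03 with the scaling by the authors, 0.04 with means of probes, 0.09 without KO1 and 0.25 without WT2, and Fth1 was -0.04 without WT2. Genes past the adjusted test numbered 0 with the stricter filter and 20 with trended robust variances, and 1 to 31 with each array left out. The 31 came without WT1, in a fit that assumes WT2 to vary like the KO lines. The genes with an unadjusted p under 0.05 numbered 654, with 1915 under median scaling, 1167 with no detection filter and 295 to 1123 with each array left out. Median scaling moved the median of all genes to 0.28 and the higher share of these calls to 94.6%, against 56.4%.

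Of the other lipid genes, 3 had an unadjusted p under 0.05, 9 under median scaling, 5 with no filter and 1 to 7 with each array left out. Of the other iron genes 1 did, 9 under median scaling, 3 with the scaling by the authors, 3 with no filter, 0 with the stricter filter, 0 with trended robust variances, 2 with means of probes and 0 to 1 with each array left out. Equal replicate numbers did not pair the lines (correlation of deviations -0.04). With the replicate block 2 genes passed the adjusted test and 683 the unadjusted p, among them 3 other lipid and 2 other iron genes. The block is balanced over the genotypes, so the medians of 1.36 and 0.56 could not change. Apart from the loss of H3f3b under the stricter filter, the causes of these shifts were not tested. With 2 lines per genotype, line and genotype cannot be told apart. Sex was only partly confounded with genotype, since KO1 alone lacked detected Eif2s3y. Without KO1 the differences were 1.37 for Apoe, 1.05 for Lpl, 1.09 for Trf and 1.03 for Slc40a1. The part of sex was not tested.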

Other observations

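Markers of other cell types that handle lipid or iron were mostly at background. Of 11 adipocyte markers with a probe, Adipoq, Plin1, Cidec, Retn, Cidea, Lgals12 and Ucp1 were not detected on any array. The 4 tested were Pparg, Cebpa, Lep and Gpd1, all dim, with a median difference of 0.07. Pparg, the master regulator of fat cell formation, gave signals of 128.9 and 126.2 in KO MEFs and 102.4 and 96.8 in WT MEFs (0.30 ± 0.21, SE, limma adjusted p = 0.80). No erythroid marker of 12 with a probe was tested, and 11 of them, Hba-a1, Hba-x, Hbb-b2, Hbb-y, Hbb-bh1, Epor, Gata1, Alas2, Slc4a1, Tal1 and Rhag, were not detected on any array.

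Among endothelial markers Pecam1, Cdh5, Kdr, Tie1, Tek, Vwf and Esam were not detected on any array. Flt1, a VEGF receptor gene, had log2 values of 7.89 and 7.38 in KO MEFs and 8.73 and 8.03 in WT MEFs (-0.74 ± 0.29, SE, limma adjusted p = 0.59), and Eng differed by -0.13 ± 0.27 (SE). Among glial markers Gfap, S100b, Olig1 and Olig2 were not detected on any array, and Mbp and Cnp differed by 0.21 and 0.03. The mean centred log2 values in WT2 were -0.04 for the endothelial and -0.09 for the glial genes, and -0.58 for the macrophage markers.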
